A study of Mus musculus with 16 samples.

Results

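The 10 genes described here, Arntl, Clock, Per1, Per2, Per3, Cry1, Cry2, Nr1d1, Nr1d2 and Dbp, are the core components of the circadian clock and were picked by name from the 14925 genes with a symbol in a CPEB4 RNA-immunoprecipitation (RIP-seq) experiment. CPEB4 binds cytoplasmic polyadenylation elements (CPEs), U-rich motifs in 3′-UTRs, and the experiment set RNA pulled down by an antibody to CPEB4 (RIP) against that of the same lysate (Input). The cells were mouse bone marrow-derived macrophages (BMDMs), grown for 7 days with L-cell medium from the femurs of adult mice of strain C57BL/6J 129. Culture 76 was wild type (WT) and culture 73 was CPEB4 KO (Cpeb4-/-, a knockout in the whole animal). Each was left untreated or received lipopolysaccharide (LPS), part of the outer membrane of bacteria such as Escherichia coli, at 10 ng/ml for 9 h. The 16 samples are 8 libraries run on 2 lanes each, so every genotype, treatment and assay was 1 library, and a difference between genotypes cannot be told apart from a difference between 2 cultures. The clock time of harvest was not given in the sources used here. In a bulk sample, fewer cells of a type and less RNA per cell cannot be told apart.

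The clock is a transcriptional feedback loop. The proteins of Arntl (BMAL1) and Clock form a dimer that switches on the Per and Cry genes, whose proteins return to the nucleus and repress that dimer. In a second loop the nuclear receptors NR1D1 and NR1D2 (REV-ERBs) repress Arntl, and Dbp, a direct target of the dimer, passes the rhythm on to genes with D-box elements. In macrophages the clock is known to gate the response to bacterial products, and REV-ERBs are known as repressors of inflammatory genes.

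Depth was low for these genes. The 3′-UTR regions with a symbol held from 467696 reads (KO RIP untreated) to 2492300 reads (WT RIP LPS), which was from 27.3% of the library total in KO RIP untreated to 70.1% in WT RIP LPS. Levels are given as reads scaled to a total of 1000000 of those reads (CPM), with a Wilson 95% interval. Differences are log2 ratios of CPM after 1 read was added to each library, with a 95% interval; both intervals cover counting error only and not the spread between cultures. A gene was called higher or lower where the ratio passed 2-fold and its interval left out 0, among genes with at least 10 reads in the libraries compared, and no p-value was computed. All 8 macrophage markers examined were present, with a summed level of 2540 to 3560 CPM in the Inputs. The listed neutrophil, dendritic cell, B cell and fibroblast markers summed to 1.08 CPM or less, and the listed T cell markers to between 2.15 and 9.05 CPM. A region was listed for 1 of 5 neutrophil, 3 of 4 dendritic cell and 2 of 3 B cell markers. It was listed for 3 of 4 T cell and 3 of 4 fibroblast markers. The neutrophil sum rests on S100a8 alone, so neutrophils were hardly measured. Cpeb4 itself was at 130 and 136 CPM in the WT Inputs against 52 and 52.6 CPM in the KO Inputs, and at 836 and 770 CPM in the WT RIPs against 257 and 367 CPM in the KO RIPs. Reads in the Cpeb4 3′-UTR were thus fewer but present in the libraries labelled KO. Which part of the gene was deleted was not given in the sources used here, so this 3′-UTR is a limited check of the genotype.

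The motif by which CPEB4 is known to recognise an mRNA was unevenly spread over the clock 3′-UTRs. Counted on the transcript strand of the GRCm38.p6 sequence (the mm10 build), with overlaps allowed, as TTTTAT or TTTTAAT or as TTTTAAAT or TTTTACT or TTTTCAT or TTTTAAGT or TTTTGT, there were 14 CPEs in Clock, 14 in Nr1d2, 10 in Per2, 5 in Arntl and 5 in Per3. Cry1 held 3, Cry2 held 2 and Per1 held 1, and the short Nr1d1 and Dbp regions held 0. Long 3′-UTRs hold more motifs, so each region was set beside the regions up to 10% shorter or longer that had at least 10 reads over the 8 libraries. As many CPEs as in Arntl were found in 4.31% of 534 such regions, as many as in Nr1d2 in 15.4% of 681, as many as in Per2 in 18.1% of 861 and as many as in Clock in 47.7% of 287. At least 1 CPE was found in 63.9% of the regions of the length of Arntl and in 100% of those of the length of Clock. At the low end, 89.6% of 814 regions of the length of Cry2 held at least as many as Cry2. The regions were matched on length and not on base content. A and U made up 65.8% of the Arntl region, where the median region of its length had 52%, and 64.6% of Nr1d2, with a median of 56.7%. The values were 60.7% and 57% for Clock, 54.4% and 56.7% for Per2, and 47.3% and 56.3% for Cry2. The part of base content was not tested.

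The CPE before the last polyadenylation signal (PAS, AATAAA or else ATTAAA) is shown with that signal for Arntl, which had many CPEs for its length, and for Clock and Nr1d2, which were enriched in the RIPs. Per1 and Dbp are shown as a gene with 1 CPE and no PAS and a gene with a PAS and no CPE. These genes were chosen after their values were seen. Each window is 30 bases, 5′ to 3′ on the transcript strand, with the motif in capitals.
Arntl CPE, chr7:113313916-113313945, plus strand: atcattggtagcTTTTATatgcaaaatggt
Arntl PAS, chr7:113314090-113314119, plus strand: ttaaatatttttAATAAAtgtttcccttgt
Clock CPE, chr5:76212304-76212333, minus strand: atttggtcttaTTTTAATgtctcctgtgga
Clock PAS, chr5:76212187-76212216, minus strand: atatatttaaaaATTAAAaatctttttttc
Nr1d2 CPE, chr14:18204675-18204704, minus strand: gtaaaattttaTTTTAATaaattcttcctg
Nr1d2 PAS, chr14:18204509-18204538, minus strand: ggtctaacagttAATAAAtgacatcagcca
Per1 CPE, chr11:69109915-69109944, plus strand: tgttattttttTTTTAATacaaaatgacaa
Dbp PAS, chr7:45710122-45710151, plus strand: aacacaatcctgAATAAAtcttgagaaccc
The CPE shown lay 168 bases before the PAS in Arntl, 111 bases before it in Clock and 160 bases before it in Nr1d2. A further CPE of Arntl shares bases with the PAS printed above and was passed over for that reason. The printed CPE of Nr1d2 itself shares bases with an earlier PAS, which ended 630 bases before the end of the counted region. The last PAS of Nr1d2 ended 467 bases before the end of the counted region, whereas those of Arntl, Clock and Dbp ended 15, 22 and 16 bases before it. In the deposited predictions of how CPEs act, Arntl was listed for repression, Nr1d2 and Per2 for both activation and repression, and the other 7 genes for neither. AUUUA, the core of AU-rich elements, was found 9 times in Clock, where the median region of that length holds 7, 6 times in Nr1d2, where it holds 4, and 3 times in Cry1, where it holds 1. Per2 held 1, Per3 held 2 and Cry2 held 2, where the median region of each length holds 3, and Arntl held 0. A match to any of these motifs is a description of the sequence and not a bound site.

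**Figure D1:**
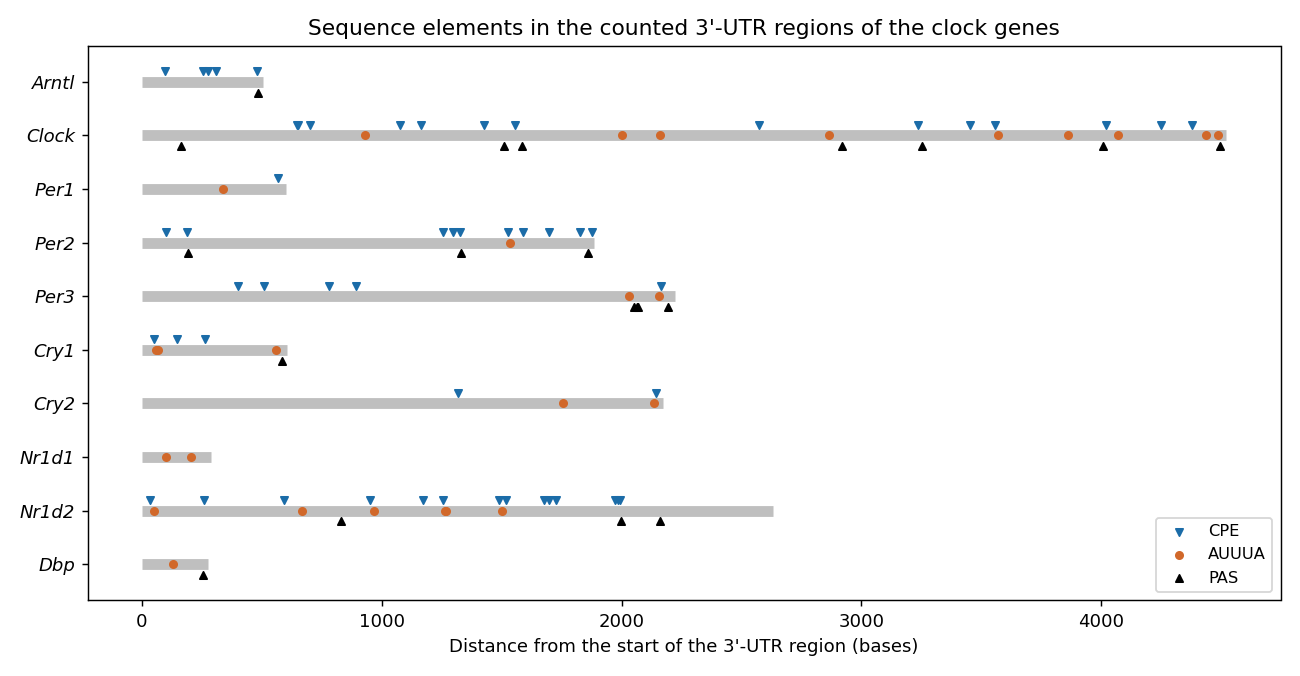
Positions of CPEs (blue triangles), AUUUA (orange circles) and polyadenylation signals (PAS, black triangles) along the counted 3′-UTR region of each clock gene (grey bar, drawn to scale, in bases from the region's start). Clock and Nr1d2 each hold 14 CPEs, those of Nr1d2 end well before the end of the region, and Nr1d1 and Dbp hold none.

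The regions differed in length and in what else lies there. Per the deposited tables they were chr7:113313620-113314122 for Arntl (503 bases), chr5:76212177-76216698 for Clock (4522), chr11:69109360-69109960 for Per1 (601), chr1:91415984-91417870 for Per2 (1887) and chr4:151003652-151005875 for Per3 (2224). Those of the other genes were chr10:85131702-85132307 for Cry1 (606 bases), chr2:92403646-92405820 for Cry2 (2175), chr11:98767932-98768219 for Nr1d1 (288), chr14:18204054-18206684 for Nr1d2 (2631) and chr7:45709881-45710155 for Dbp (275). All 10 matched a 3′-UTR exon of the same transcript in GENCODE M21. The Per3 region overlaps the bounds of the Camta1 gene on the same strand, but none of its annotated exons. The Dbp region lies wholly inside a 3′-UTR of Sphk2, a sphingosine kinase gene on the other strand, and 63 bases of the Nr1d1 region are a coding exon of Thra, a thyroid hormone receptor gene on the other strand. In 323 pairs where a region lies inside one of the other strand, the inner region never held more reads than the outer one, so strand did not separate such pairs and reads of Dbp and Sphk2, or of Nr1d1 and Thra, cannot be told apart.

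In the Inputs the clock genes together took 173 CPM in WT untreated, 137 CPM in WT LPS, 179 CPM in KO untreated and 127 CPM in KO LPS. Per kilobase of region, the level in WT untreated was highest for the Dbp region at 66.5 CPM per kb (41.5 to 107). Its interval lay apart from that of the next gene. Reads of Dbp and Sphk2 cannot be told apart there, so this rank cannot be credited to Dbp alone. Per3 at 18.9 CPM per kb (13.8 to 25.8), Nr1d2 at 18.4, Per1 at 10.7, Cry2 at 7.92 and Clock at 7.38 followed, each with an interval that overlapped its neighbour's. Per2, Arntl and Cry1 were at 2.85, 2.14 and 1.78 CPM per kb, and Nr1d1 had no read. After LPS the order of levels per kilobase was led by Per1 in both genotypes, at 33.3 CPM per kb (24.3 to 45.7) in WT and 49.8 (37.2 to 66.7) in KO, with an interval that overlapped that of Dbp, next in order, in both. Per3 was lowest in WT LPS, at 2.13 CPM per kb (1.12 to 4.05), with an interval that overlapped that of Cry1.

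**Figure D2:**
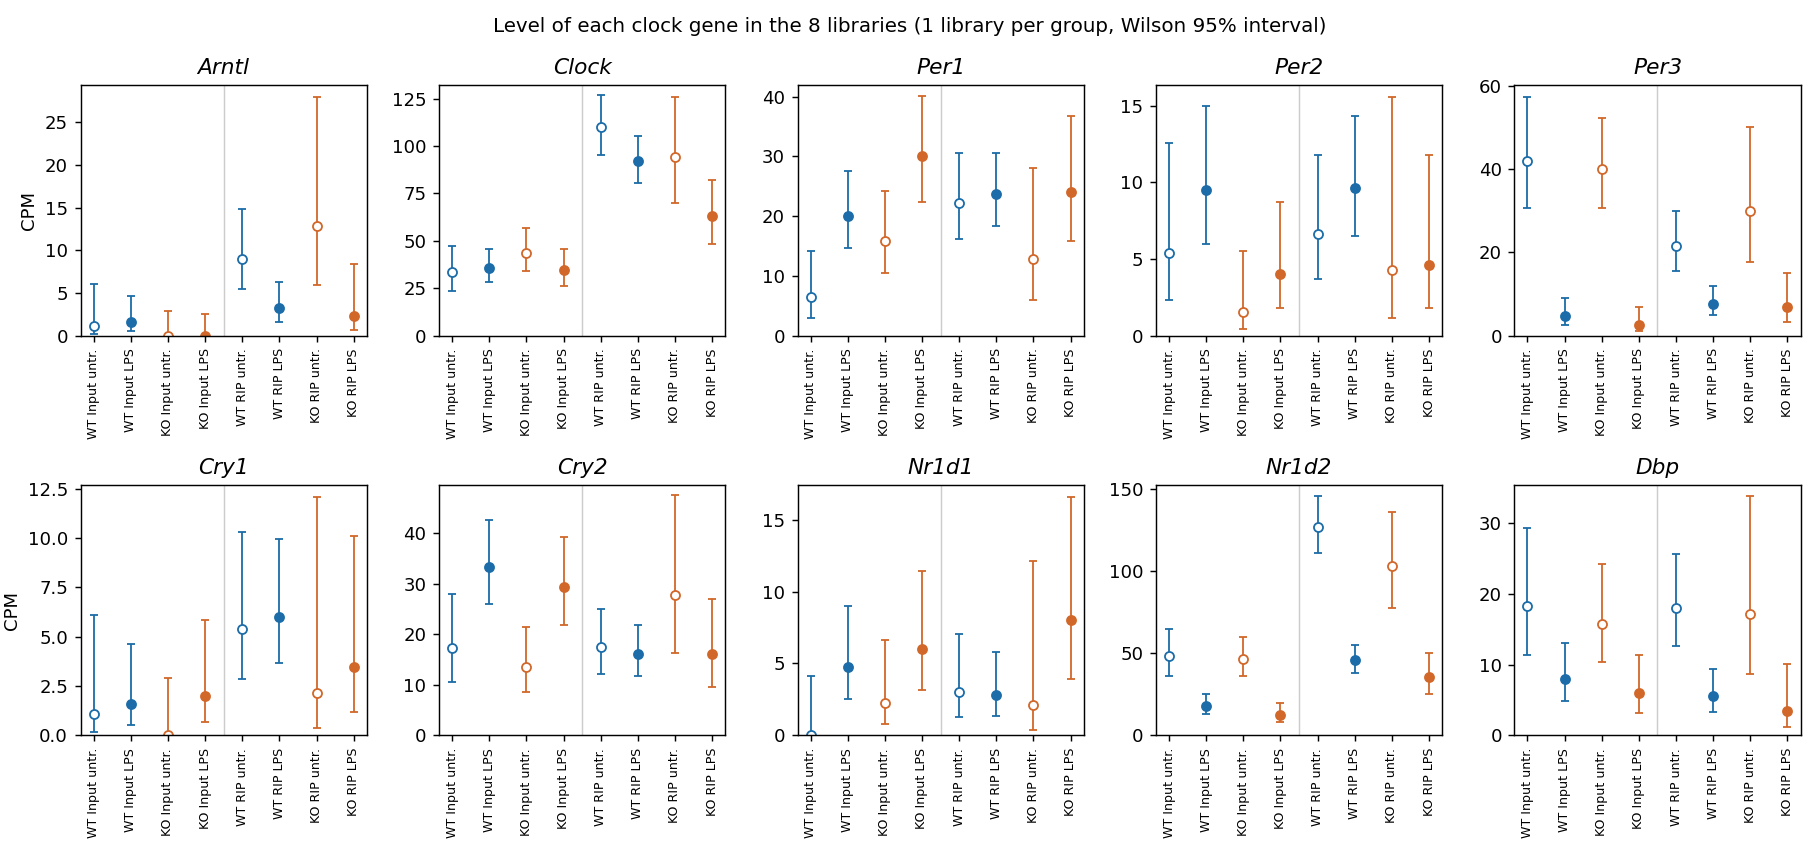
CPM of each clock gene (vertical axis, starting at 0 and scaled per gene) in the 8 libraries (horizontal axis), WT in blue and KO in orange, untreated as open and LPS as filled circles, Inputs left and RIPs right of the grey line; bars are Wilson 95% intervals of 1 library each. In the Inputs of both genotypes Per3, Nr1d2 and Dbp are lower with LPS, and Clock and Nr1d2 are higher in the RIPs than in the Inputs.

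Per3, Nr1d2 and the Dbp region, shared with Sphk2, were lower with LPS in the Inputs of both genotypes. Per1 in WT and Cry2 in KO were higher, and Clock was not called changed. Of the 7 clock genes with enough reads in each genotype, 1 was higher and 3 were lower; among all genes tested, 11.7% were higher and 15.4% lower in WT, and 12.1% higher and 18.5% lower in KO. The median log2 ratio of the tested clock genes was 0.08 in WT and -0.33 in KO, beside -0.08 and -0.18 over all genes tested. The clock genes tested included Per2 in WT only and Nr1d1 in KO only. Tnf, a cytokine gene that LPS is known to induce, rose in the same libraries from 47.4 to 436 CPM in WT and from 36.2 to 310 CPM in KO.

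Per3, a weaker member of the repressor family, had the largest change of the clock genes. It had 39 reads (42 CPM, 30.7 to 57.4) in the WT untreated Input and 9 reads (4.74 CPM, 2.5 to 9.02) in the WT LPS Input. In KO it went from 53 reads (40 CPM, 30.6 to 52.3) to 4 reads (2.66 CPM, 1.04 to 6.85). The untreated libraries lay close to each other and well above both LPS libraries. The fall was 8.17-fold in WT, a log2 ratio of -3.03 (-4.03 to -2.03), and 12.2-fold in KO, a log2 ratio of -3.61 (-4.93 to -2.29). In WT 1.83% and in KO 1.41% of the genes tested had a lower ratio.

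Nr1d2 (REV-ERBβ), a repressor of Arntl, fell with LPS as well. It had 45 reads (48.4 CPM) in WT untreated and 34 reads (17.9 CPM) in WT LPS, and 62 reads (46.8 CPM) and 19 reads (12.6 CPM) in the corresponding KO libraries. The log2 ratio was -1.42 (-2.06 to -0.79) in WT and -1.84 (-2.56 to -1.11) in KO. Its paralogue Nr1d1 (REV-ERBα) had few reads. It had 0 reads in WT untreated, where the Wilson interval reaches 4.13 CPM, and 9 reads (4.74 CPM, 2.5 to 9.02) in WT LPS. KO had 3 and 9 reads, a log2 ratio of 1.14 (-0.53 to 2.81). No fall was thus called for Nr1d1, and the difference between the paralogues was not tested.

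Dbp, the D-box activator at the output of the clock, had 17 reads (18.3 CPM) in WT untreated and 15 reads (7.91 CPM) in WT LPS, and 21 reads (15.8 CPM) and 9 reads (5.99 CPM) in KO. The level of its region fell by 1.20 on the log2 scale in WT (-2.17 to -0.23) and by 1.32 in KO (-2.40 to -0.24). The overlapping Sphk2 region, Dbp segment included, had log2 ratios of -0.14 (-0.45 to 0.18) in WT and -0.18 (-0.50 to 0.14) in KO and was not called. The rest of the Sphk2 region held more reads per kb than the Dbp segment in each Input. It held 110 against 61.8 in WT untreated and 222 against 54.5 in WT LPS. In KO it held 137 against 76.4 untreated and 150 against 32.7 with LPS. The fall of the Dbp region can therefore not be credited to Dbp alone.

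Among the other repressors, Per1, the period gene most rapidly induced by external signals, had 6 reads (6.46 CPM) in WT untreated and 38 reads (20 CPM) in WT LPS, a log2 ratio of 1.45 (0.29 to 2.61) that was called higher, although not in the longest Per1 region (0.78, -0.83 to 2.38). In KO it had 21 reads (15.8 CPM) and 45 reads (30 CPM), a ratio of 0.88 (0.15 to 1.62) that did not pass 2-fold. On the other 3 scales tried for the library size it did, at 1.02 to 1.10. Cry2, a repressor of the CLOCK-BMAL1 dimer, had a ratio of 0.88 (0.11 to 1.65) in WT from 16 and 63 reads and of 1.06 (0.29 to 1.84) in KO from 18 and 44 reads, of which the latter was called. With TMM the WT ratio was 1.02, and Per1 and Cry2 were then called in both genotypes. For both genes the intervals lay above 0 in both genotypes. Per2, a partner of the CRY proteins, had 5 and 18 reads in WT, a ratio of 0.63 (-0.69 to 1.96), and 2 and 6 reads in KO. Cry1, its strongest partner in repression, had 3 reads or fewer in each of the 4 Inputs, so no ratio was formed.

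The activators gave no call in the Inputs. Clock had 31 reads (33.4 CPM) in WT untreated and 68 reads (35.8 CPM) in WT LPS, a log2 ratio of 0.08 (-0.53 to 0.68), and 58 reads (43.7 CPM) and 52 reads (34.6 CPM) in KO, a ratio of -0.33 (-0.87 to 0.20). A change of more than 2-fold in either direction lies outside these intervals. Arntl had 1 and 3 reads in the WT Inputs and 0 in both KO Inputs, where the Wilson interval reaches 2.9 CPM untreated and 2.56 CPM with LPS. No LPS change of Arntl could thus be detected at this depth.

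The response of the Inputs to LPS did not differ by a call between the genotypes for any clock gene. Among the 8 with enough reads over the 4 Inputs, KO minus WT ranged from -1.15 (-4.55 to 2.25) for Nr1d1, which had 0 reads in WT untreated, to 0.41 (-1.95 to 2.77) for Per2, and 0 of 8 were called, beside 3.76% of all genes. For Per3 the difference was -0.58 (-2.24 to 1.07), for Nr1d2 -0.41 (-1.37 to 0.55), for Dbp -0.12 (-1.57 to 1.33) and for Per1 -0.56 (-1.94 to 0.81). These intervals include differences of 2-fold.

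**Figure D3:**
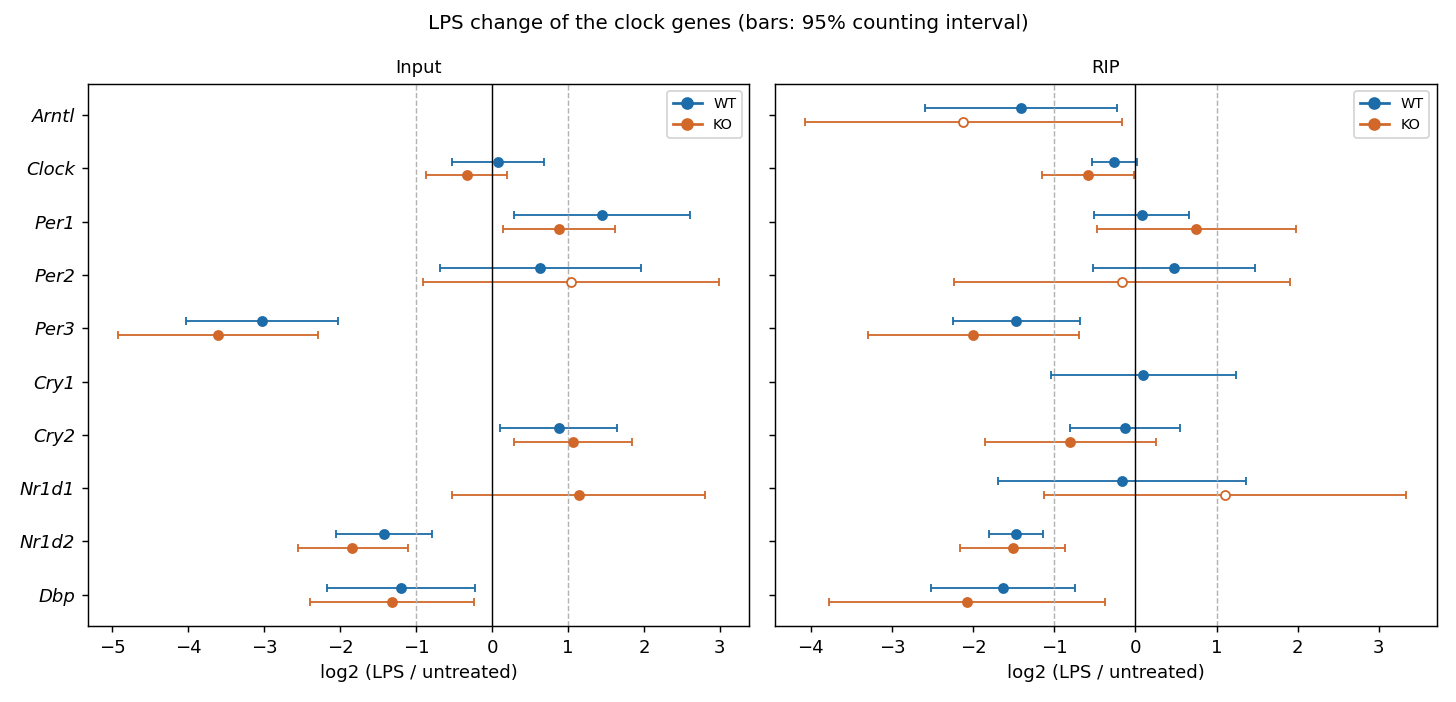
log2 ratio of LPS over untreated for each clock gene in the Inputs (left) and the RIPs (right), WT in blue and KO in orange; bars are 95% counting intervals, dashed lines mark 2-fold, open circles had fewer than 10 reads in the pair, and genes with 3 reads or fewer in each library or with 0 reads in 1 library are not drawn. Per3, Nr1d2 and Dbp lie below 0 in both panels and both genotypes.

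In the RIPs, which are separate libraries from the same lysates, Per3, Nr1d2 and Dbp were again lower with LPS in both genotypes. In WT 4 of 10 clock genes were lower, the fourth being Arntl, beside 19.7% of all genes, and in KO 3 of 6 were lower, beside 18% of all genes. No clock gene was higher in either genotype, beside 10.6% of all genes in WT and 11% in KO. The median log2 ratio of the clock genes was -0.21 in WT and -1.16 in KO, against -0.24 and -0.20 over all genes. These medians rest on 10 genes in WT and on 6 in KO, so they do not compare the genotypes.

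Nr1d2, the best covered of the 3, went from 212 reads (127 CPM, 111 to 146) to 114 reads (45.7 CPM, 38.1 to 54.9) in the WT RIPs and from 48 reads (103 CPM) to 31 reads (35.6 CPM) in the KO RIPs. Its log2 ratios of -1.47 (-1.80 to -1.14) and -1.51 (-2.16 to -0.87) lay close to those of the Inputs. Per3 went from 36 to 19 reads in WT, a ratio of -1.47 (-2.25 to -0.68), and from 14 to 6 reads in KO, a ratio of -2.00 (-3.29 to -0.70). With library totals in place of the sum of 3′-UTR reads, which moved the median of all genes in WT from -0.24 to 0.28, the WT ratios of Nr1d2 and Per3 both became -0.95 and were not called. Both of the Per3 ratios are smaller in size than those of the Inputs given above, and that difference was not tested. Dbp went from 30 to 14 reads in WT and from 8 to 3 reads in KO, ratios of -1.63 (-2.52 to -0.74) and -2.07 (-3.77 to -0.37). Sphk2 had ratios of -0.80 (-1.21 to -0.38) and -0.01 (-0.56 to 0.54) in the same RIPs, and its part in the Dbp ratios was not tested.

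Arntl had more reads in the RIPs than in the Inputs, so that an LPS change could be measured there. It went from 15 reads (9 CPM, 5.46 to 14.9) to 8 reads (3.21 CPM, 1.63 to 6.33) in WT, a log2 ratio of -1.41 (-2.59 to -0.23) that was not called on the other 3 scales (-1.17 to -0.89), and from 6 to 2 reads in KO, a ratio of -2.12 (-4.07 to -0.17) with too few reads for a call. Clock had 183 and 229 reads in WT, a ratio of -0.26 (-0.54 to 0.02), and 44 and 55 reads in KO, a ratio of -0.58 (-1.15 to -0.02). Per1 and Cry2 were not called in the RIPs. Their WT ratios were 0.08 (-0.51 to 0.66) and -0.13 (-0.81 to 0.55), and their KO ratios were 0.75 (-0.47 to 1.98) and -0.80 (-1.85 to 0.25).

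RIP over Input asks which clock mRNAs the antibody recovered beyond their level in the lysate. Clock and Nr1d2 were enriched in both WT comparisons. In WT untreated 4 of 9 clock genes were higher in the RIP (Arntl, Clock, Per1 and Nr1d2), beside 21.2% of all genes, and none was lower, beside 19.8%. In WT LPS 3 of 10 were higher (Clock, Cry1 and Nr1d2), beside 21.6%, and 1 was lower (Cry2), beside 25.4%. The median log2 ratio of the clock genes was 1.37 in WT untreated and 0.42 in WT LPS, where the median of all genes was 0.03 and -0.03. Nr1d1 entered only the median of WT LPS. Arntl and Cry1 had 3 reads or fewer in each WT Input and reached the minimum of 10 reads mainly through the RIP. A call of lower was thus hardly open to them, and their ratios lay above the median in both treatments. The counts and medians are therefore no measure of enrichment of the clock genes as a group.

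Clock had 33.4 CPM in the Input and 110 CPM (95 to 127) in the RIP of WT untreated cells, and 35.8 and 91.9 CPM (80.7 to 105) of WT LPS cells. The log2 ratios were 1.68 (1.14 to 2.22) and 1.34 (0.96 to 1.73). Nr1d2 had 48.4 CPM in the Input and 127 CPM in the RIP of WT untreated cells, and 17.9 and 45.7 CPM with LPS. Its ratios were 1.37 (0.91 to 1.83) and 1.32 (0.78 to 1.87), so that the enrichment was alike at the higher and at the lower level of the mRNA. These are the 2 clock genes with 14 CPEs each, printed in part above, although CPE number and read depth both rise with region length, and the part of length was not tested. As many CPEs were found in 47.7% of the regions of the length of Clock and in 15.4% of those of the length of Nr1d2. Both genes were above the Input in the KO RIPs too, as given below, and a link to CPE number was not tested.

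Arntl was enriched in WT untreated, with 1 read in the Input and 15 in the RIP, a log2 ratio of 2.16 (0.04 to 4.28) whose lower limit lies next to 0. With LPS it had 3 and 8 reads, a ratio of 0.78 (-0.92 to 2.48). Cry1 had 1 and 9 reads untreated, a ratio of 1.48 (-0.71 to 3.67), and 3 and 15 reads with LPS, a ratio of 1.61 (0.03 to 3.19) that was called. Per1 was enriched in WT untreated, with 6 reads in the Input and 37 in the RIP, a ratio of 1.60 (0.44 to 2.76). Its ratio with LPS was 0.23 (-0.35 to 0.81), from 38 and 59 reads. The WT untreated Input, with these 6 reads, also enters the LPS change of Per1 and its Input-corrected ratio below, so the 3 Per1 calls are not independent.

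The remaining clock genes were not called higher in WT. Per3 had ratios of -0.95 (-1.60 to -0.31) untreated and 0.61 (-0.49 to 1.70) with LPS, and Cry2 of -0.02 (-0.88 to 0.84) and -1.04 (-1.60 to -0.47), the latter called lower but not on the other 3 scales (-0.93 to -0.52). Per2, with 10 CPEs, lay at 0.16 (-1.26 to 1.57) and 0.00 (-0.86 to 0.86). Dbp, with no CPE, lay at -0.06 (-0.90 to 0.78) and -0.49 (-1.50 to 0.53), and Nr1d1 with LPS at -0.72 (-2.06 to 0.63). A 2-fold enrichment lies outside the intervals of Cry2 and of the Dbp region in both treatments and inside that of Per2 in untreated cells. With library totals the interval of the Dbp region with LPS reached 1.04. Sphk2, whose reads cannot be told apart from those of Dbp, had ratios of -1.16 (-1.54 to -0.78) untreated and -1.82 (-2.18 to -1.47) with LPS. The intervals of the Dbp region therefore set no limit for Dbp mRNA alone.

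The KO RIPs give the same measurement in the culture labelled as lacking the antibody's target, and there Clock and Nr1d2 were also above the Input. In KO untreated 3 of 6 clock genes were higher (Clock, Cry2 and Nr1d2), beside 15.5% of all genes, and in KO LPS 1 of 8 was higher (Nr1d2), beside 15.1%. None was lower in either, beside 7.75% and 9.04%. Clock was at 43.7 CPM in the KO untreated Input and 94.1 CPM in the RIP, a log2 ratio of 1.11 (0.55 to 1.67), and with LPS at 34.6 and 63.1 CPM, a ratio of 0.87 (0.32 to 1.41) that did not pass 2-fold. Nr1d2 had ratios of 1.14 (0.60 to 1.68) and 1.46 (0.66 to 2.27). With library totals, which moved the median of all genes in KO to -0.75 untreated and -0.68 with LPS, the untreated ratios were 0.35 for Clock, 0.37 for Nr1d2 and 0.30 for Cry2, none of them called. With LPS on that scale Nr1d2, at 0.78, was no longer called, and Cry2 was called lower, at -1.48. The untreated Cry2 ratio, 1.06 (0.07 to 2.06), was not called with TMM either, at 0.96. Arntl had 0 reads in the KO untreated Input and 6 in the RIP (12.8 CPM, 5.88 to 28), too few for a call. The Per1 ratios were -0.15 (-1.38 to 1.08) and -0.28 (-1.01 to 0.45). They turned with the region counted, as described below.

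**Figure D4:**
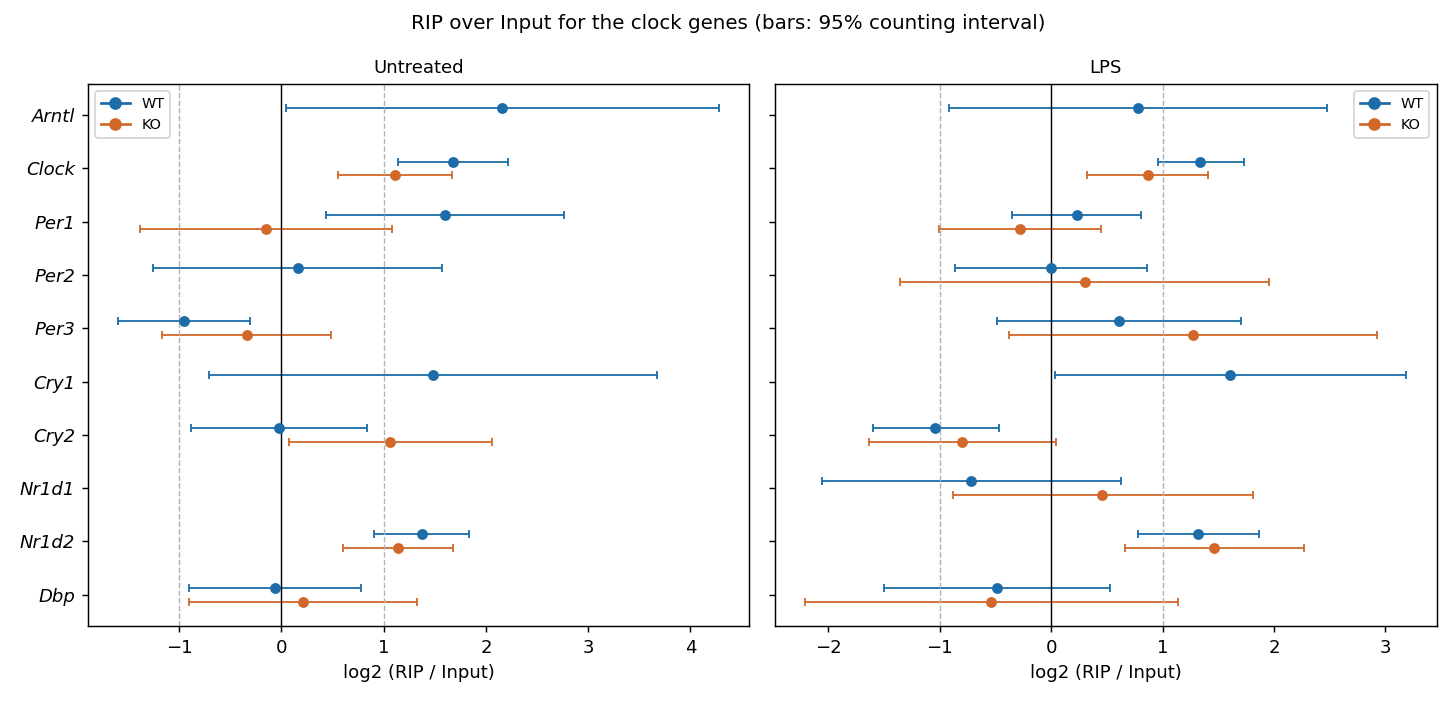
log2 ratio of RIP over Input for each clock gene in untreated (left) and LPS-treated (right) cells, WT in blue and KO in orange; bars are 95% counting intervals, dashed lines mark 2-fold, and genes without a ratio are not drawn. Clock and Nr1d2 lie above 0 in all 4 comparisons, and their WT and KO intervals overlap.

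In the direct comparison of the WT and KO RIPs no clock gene was called higher in WT. Untreated, 0 of 9 were higher or lower, beside 5.95% and 11.5% of all genes. With LPS, 0 of 10 were higher, beside 7.11%, and 1 was lower, beside 14.9%. That gene was Nr1d1, with 7 reads in each RIP and a log2 ratio of -1.52 (-2.93 to -0.10) that was not called with TMM scaling (-1.30, -2.71 to 0.12).

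For Clock the ratio of WT over KO was 0.20 (-0.27 to 0.67) untreated and 0.52 (0.10 to 0.94) with LPS, so that the latter interval lay above 0 and below 2-fold. For Nr1d2 it was 0.29 (-0.16 to 0.74) and 0.33 (-0.24 to 0.89). These intervals leave out a 2-fold difference for both genes. The other ratios of untreated cells ran from -0.73 (-1.65 to 0.18) for Cry2 to 0.61 (-0.56 to 1.77) for Per1, and their intervals reached past 2-fold. The share of a library's reads on these 3′-UTRs was 48.9% and 70.1% in the WT RIPs and 27.3% and 31.8% in the KO RIPs, so the scale matters here. With library totals, which underlie the deposited RPKM, the median of all genes moved to 0.75 untreated and 1.10 with LPS, and Clock moved to 1.04 and 1.66 and Nr1d2 to 1.13 and 1.47. Both genes were then called higher in WT in both treatments. A change of library scale shifts the ratio of every gene alike, so the distance of a gene from that median is fixed and is no check.

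No clock gene was called different between the WT and KO Inputs. Calls numbered 0 of 6 untreated, beside 3.05% of all genes in either direction, and 0 of 8 with LPS, beside 2.97%. Untreated, Per3 had a ratio of 0.08 (-0.51 to 0.67) and Nr1d2 of 0.06 (-0.49 to 0.61), which leave out a 2-fold difference. Among the 6 genes with at least 10 reads, the largest in size of the untreated ratios was that of Per1, -1.14 (-2.37 to 0.09), from 6 WT and 21 KO reads. With LPS it was -0.57 (-1.19 to 0.04) for Per1 and 1.10 (-0.15 to 2.35) for Per2, from 18 WT and 6 KO reads.

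Correcting the genotype ratio of the RIPs for that of the Inputs gave 1 call, among the 9 genes with enough reads in untreated cells. Per1 in untreated cells had an Input-corrected log2 ratio of 1.75 (0.06 to 3.44), beside 7.42% of all genes called higher. It rests on 6 reads in the WT Input and 6 in the KO RIP, and the RIPs alone differed by less than their counting error. The call also depends on the region counted. Per1 has a longer listed region of 803 bases at chr11:69105656-69106458, with 9 RIP and 3 Input reads in WT untreated and 8 RIP and 3 Input reads in KO untreated, where the ratio was -2.19 (-4.58 to 0.19). In that region RIP over Input was 0.48 (-1.19 to 2.15) in WT untreated and 2.67 (0.97 to 4.37) in KO untreated, against 1.60 and -0.15 in the 601-base region. The regions of Per1 thus disagree, and its genotype comparison is uncertain. With LPS 0 of the 10 genes with enough reads were called, beside 6.61% of all genes called higher and 14.5% lower. In both treatments Arntl and Cry1 were counted through their RIP reads. Their Inputs held 3 reads or fewer, so no Input ratio was formed for them. Clock had Input-corrected ratios of 0.57 (-0.21 to 1.35) and 0.48 (-0.19 to 1.14), and Nr1d2 of 0.23 (-0.48 to 0.94) and -0.14 (-1.11 to 0.83). These values depend on the scale. With library totals, which moved the median of all genes to 0.71 untreated and 1.02 with LPS, Clock moved to 1.40 and 1.68. Nr1d2 moved to 1.06 in both treatments, and Clock, Nr1d2 and Per1 were then called higher in both.

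**Figure D5:**
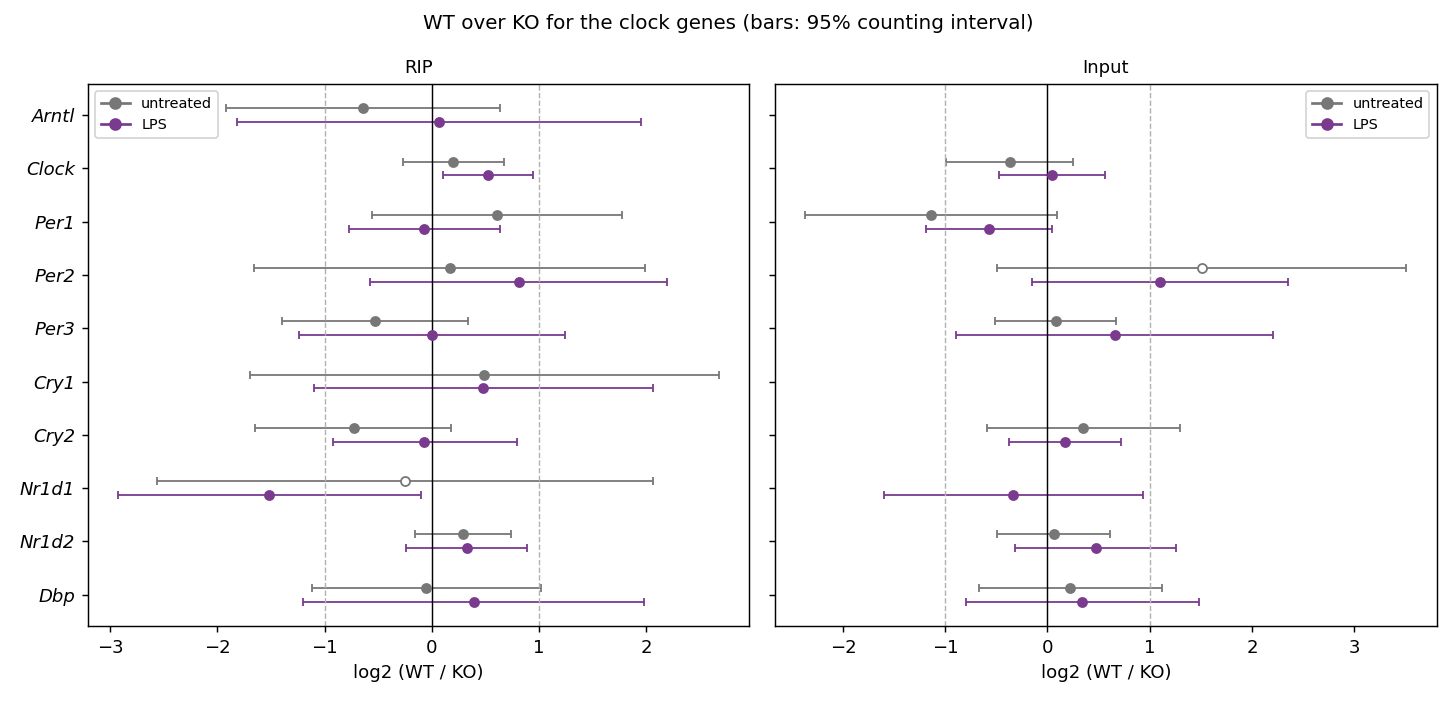
log2 ratio of WT over KO for each clock gene in the RIPs (left) and the Inputs (right), untreated in grey and LPS in purple; bars are 95% counting intervals, dashed lines mark 2-fold, open circles had fewer than 10 reads in the pair, and genes without a ratio are not drawn. No clock gene lies above 2-fold with an interval that leaves out 0, and in the RIPs with LPS Nr1d1 lies at -1.52.

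A further 23 genes around the clock (other clock transcription factors, and regulators of the clock proteins) were examined in the same way. In the Inputs 1 of 12 tested was higher and 3 were lower with LPS in WT, beside 11.7% and 15.4% of all genes, and 1 of 13 was higher and 3 were lower in KO, beside 12.1% and 18.5%. The gene that was higher was Nfil3, which encodes a repressor acting at the D-box elements that DBP activates, with ratios of 2.01 (1.06 to 2.95) in WT and 2.29 (1.49 to 3.08) in KO. Tef, which encodes an activator of the same protein family as DBP, was lower, at -1.61 (-1.92 to -1.30) and -1.88 (-2.20 to -1.56), and so was Bhlhe41, a repressor of the CLOCK-BMAL1 dimer, at -1.55 (-1.87 to -1.22) and -1.38 (-1.71 to -1.04). Csnk1e, a kinase of PER proteins, was lower in WT at -1.16 (-1.68 to -0.63) and had a ratio of -0.61 (-1.06 to -0.15) in KO that was not called. Rora, an activator of Arntl that competes with the REV-ERBs, was lower in KO at -1.50, from 109 and 43 reads, and had a ratio of -0.50 (-1.02 to 0.02) in WT that was not called.

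In this wider list RIP over Input was called higher in WT untreated for 3 of 14 genes and lower for 1, beside 21.2% and 19.8% of all genes, and in WT LPS higher for 5 of 14 and lower for 1, beside 21.6% and 25.4%. In KO untreated 1 of 11 was higher and 2 were lower, beside 15.5% and 7.75% of all genes. In KO LPS 4 of 13 were higher and 2 lower, beside 15.1% and 9.04%. Prkaa1, a subunit of the kinase AMPK, which phosphorylates CRY1, had ratios of 2.32 (1.83 to 2.81) and 2.20 (1.91 to 2.49) in WT. Its KO ratios of 0.98 (0.48 to 1.48) untreated and 0.74 (0.36 to 1.13) with LPS also lay above 0 but were not called. Of WT over KO in the RIPs, 1 of 14 was higher and 0 lower untreated, beside 5.95% and 11.5% of all genes, and 3 were higher and 3 lower with LPS, beside 7.11% and 14.9%. Csnk1e was higher in both, with 193 WT and 7 KO reads in the untreated RIPs, a ratio of 2.77 (1.75 to 3.79), and with 153 and 17 reads after LPS, a ratio of 1.58 (0.88 to 2.29). Prkaa1 was higher with LPS, at 1.13 (0.83 to 1.43), and not called untreated, at 0.76 (0.35 to 1.17). Corrected for the Inputs, 3 of 14 were higher and 0 lower untreated, beside 7.42% and 10.7% of all genes. With LPS 2 of 14 were higher and 1 lower, beside 6.61% and 14.5%. Csnk1e (2.84 and 2.20) and Prkaa1 (1.34 and 1.46) were higher in both treatments. Among the 10 core genes the highest WT over KO ratio of the RIPs was 0.81 (-0.58 to 2.19), for Per2 with LPS.

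Clock, Cry2 and Nr1d2 had at least 10 reads in every library, so that their whole pattern could be set beside that of 4093 genes over the 8 libraries. The measure of likeness was the distance between centred log2 CPM profiles. Nearest to Clock was Wasl, a regulator of actin assembly, at a distance of 0.20, where the median gene lay at 2.43, and nearest to Nr1d2 was Oxct1, an enzyme of ketone body use, at 0.42, with a median of 3.15. Nearest to Cry2 was Edc3, an enhancer of mRNA decapping, at 0.82, with a median of 2.11. Counting error alone gives distances of 0.79, 0.73 and 0.95 for these pairs, so the order among near neighbours is not resolved.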

How the data were processed

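RIP and Input libraries of WT and CPEB4 KO BMDMs were sequenced as single-end reads of 100 bases. Input RNA was depleted of ribosomal RNA. The authors aligned reads to mm10 with Bowtie2 (version 2.2.2 per the submitters' processing notes, which also name MACS 1.4.2), removed duplicates and counted the reads falling on 3′-UTRs of Ensembl transcripts. The deposited counts hold both lanes of a library in 1 column and were identical in the 4 tables. The authors' deposited RPKM served to derive library totals, and the deposited region length is given in bases. Deposited fold changes, p-values with their adjustment, and peak scores for RIP against Input were not used. The 495 of 31117 rows without a symbol (0.902% to 1.04% of 3′-UTR reads) were left out. Isoform regions overlap, so column sums count some reads more than once. Each gene was represented by its region with the most reads over the 8 libraries.

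CPM were scaled to column sums over rows with a symbol. Ratios used 1 added read, a minimum of 10 reads in the libraries compared and a threshold of 1 on the log2 scale. They were given with normal 95% counting intervals. The level of a count of 0 was bounded by its Wilson interval. No ratio was formed where both libraries held 3 reads or fewer. No test across replicates was possible. The calculation was tested on simulated data. Alternatives were library totals, edgeR TMM, DESeq2 median-of-ratios (R 4.3.3, edgeR 4.0.16, DESeq2 1.42.0), 0.1 added reads, minimums of 50 reads or none, summed regions and the longest region. Motifs were read from the GRCm38.p6 sequence held by RefSeq, at the deposited coordinates (same build). Named genes were the 10 core genes, called genes of a list of 23 further clock genes (1 is not reported here), LPS response genes, Cpeb4, genes overlapping on the other strand and nearest profiles. These genes and lists were chosen with earlier results of these data known.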

Additional observations from a re-analysis of the deposited data

How the results depend on the processing

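No paired analysis was possible because each group was 1 library and the numbered lanes are runs of that library. Of the ratios called on the main setting, 1 changed sign: the Input-corrected Per1 ratio in untreated cells became -2.19 with the longest region. Among ratios not called there, Per1 became called with the other sign with that region, at -1.68 for WT over KO RIP untreated, -2.01 for the Input-corrected ratio with LPS, and 2.67 and 1.27 for RIP over Input in KO untreated and with LPS; with library totals Nr1d2 became 1.06 for the Input-corrected ratio with LPS and Per1 and Cry2 1.07 and 1.08 for WT over KO RIP with LPS. Numbers of clock genes called moved as follows. With library totals they were 1 for the LPS change of RIP in WT, 1 for RIP over Input in KO untreated, 3 and 6 for WT over KO RIP untreated and with LPS, and 3 for Input-corrected WT over KO in either treatment. With at least 50 reads they were 1 and 2 for the LPS change of Input and of RIP in WT, 1 for the LPS change of RIP in KO, 2 for RIP over Input in WT untreated and 0 for WT over KO RIP with LPS. TMM also gave 0 for the last. The longest region gave 2 for RIP over Input in KO LPS, 1 and 2 for WT over KO RIP untreated and with LPS, and 0 and 1 for the Input-corrected ratio; summed regions gave 1 for WT over KO Input and 0 for the Input-corrected ratio, both untreated. The cause was not tested. Other counts stayed within 1.5 times. Per3, Nr1d2 and Dbp were called lower in both Inputs under each scaling. Library totals moved the median of all genes from -0.24 to 0.28 for the LPS change of RIP in WT, from 0.02 to -0.75 and from 0.00 to -0.68 for RIP over Input in KO, and from -0.03 to 0.48 in WT LPS. The share of calls that were higher moved from 34.1% to 97.1% for WT over KO RIP untreated, from 32.3% to 97.8% with LPS, and from 66.6% to 12.8% and 62.6% to 13% for RIP over Input in KO untreated and with LPS. It moved from 46% to 69.4% for RIP over Input in WT LPS, from 35.1% to 67.1% for the LPS change of RIP in WT, and from 41.1% to 94.2% and 31.3% to 97.2% for the Input-corrected ratio untreated and with LPS. The furthest moves elsewhere were from 39.6% to 53.1% for the LPS change of Input in KO, from 49.6% to 34.8% for WT over KO Input with LPS and from 37.2% to 55.1% for KO minus WT, all with median-of-ratios, and from 38% to 55.4% with TMM for the LPS change of RIP in KO. Arntl, Cry1 and Nr1d1 had 15 reads or fewer in each library, which leaves most of their ratios undecided.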
